A study of Mus musculus with 16 samples.

Results

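The comparison set 4 ATAC-seq libraries of old haematopoietic stem cells (HSCs) recovered from young recipients after transplantation against 4 libraries of young HSCs that were never transplanted. These 8 of the 16 libraries of the series were taken by their labels, with no measured value involved. Old post libraries each held HSCs that came from 1 male donor aged 24 months. Of each donor's HSCs, 1000 were placed, together with 300000 Sca-1-depleted helper cells, in each of 5 lethally irradiated young BJ recipients, and the marrow of the 5 recipients was pooled 3 months later. Young pre libraries each held HSCs pooled from 3 to 4 male donors aged 8 to 12 weeks. The other libraries of the series were 4 from the same old donors before transplantation (old pre) and 4 of young HSCs after it (young post), and they serve here as points of orientation. Every library was made from 10000 HSCs. A sort on a donor marker after transplantation is not mentioned in the labels, and recipient or helper HSCs may therefore be among the old post cells.

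HSCs reside in bone marrow, renew themselves and give rise to every blood lineage. ATAC-seq uses a transposase to cut DNA that is free of nucleosomes, so its peaks mark promoters and enhancers that are open. HSCs of aged mice are known for more platelet-lineage and fewer lymphoid-lineage features, and transplantation into a young host is used to ask how much of that state follows the cells and how much follows the marrow they sit in. The question here was how near old HSCs come to fresh young HSCs after 3 months in young marrow. Age, transplantation and assay day all differed between the groups. Old post libraries were transposed on days 4, 4, 5 and 6 and young pre libraries on days 2, 2, 2 and 3, so the effects of the 3 cannot be told apart. Replicates were separate donors in the old groups and separate donor pools in the young groups.

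The old post lists held 23287, 28498, 31003 and 14008 peaks on the standard chromosomes, and the young pre lists held 28298, 23044, 21346 and 9614. List length overlapped between the groups (exact permutation test, two-sided, p = 0.457). Old post 4 and young pre 4 had by far the shortest list of their group, and results are therefore also given without them. No read counts were used, so an absent peak is read as not called and not as closed chromatin. Between 16 and 19 of 24 HSC genes, among them Mecom, Hlf and Procr, had a region in every one of the 8 libraries when lists were brought to 1 length. Of 16 mature lymphoid genes, 2 to 3 had one, and Cd3e, Cd4 and Cd8a had none in any of the 8 full lists. Of 20 granulocyte and monocyte genes 9 had a region in each library, with none at Mpo, Camp, Ctsg or Ngp, and of 15 erythroid genes 5 to 6 had one.

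By peak lists of equal length the groups shared most of their open regions. With every library cut to its 9614 strongest peaks, 6719 of the 10977 regions called in at least 2 lists (61.2%) were called in all 8. In the 16 pairs of an old post with a young pre library, 82.6 to 90.4% of the old post regions and 82.3 to 91.1% of the young pre regions had a partner. The Jaccard index, the number of shared regions over the number in either list, was 0.723 to 0.827 in these pairs. It was 0.77 to 0.87 among old post libraries and 0.738 to 0.847 among young pre libraries, so the ranges overlapped. Pairs of the same group averaged 0.803 and pairs across groups 0.781, a difference of 0.0218 that was the largest of the 35 ways to split 8 libraries 4 against 4 (exact permutation test, one-sided, p = 0.0286, the smallest possible). That order was lost in the full lists, where the difference was -0.0178 (exact permutation p = 0.543), and with lists cut to 5000 peaks it was 0.0135 (exact permutation p = 0.229).

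For a view over the whole series, all 16 lists were cut to 5687 peaks, the length of the shortest. The mean Jaccard index with the young pre libraries was 0.736, 0.751, 0.742 and 0.704 in old post 1 to 4. It was 0.736, 0.733, 0.769 and 0.679 for young pre 1 to 4, each against the other 3. The old post mean of 0.733 ± 0.0204 (SD, n = 4) thus lay within the range of the young pre libraries among themselves, whose mean was 0.729 ± 0.0373 (SD, n = 4). Old pre libraries reached 0.73, 0.716, 0.736 and 0.673 (0.714 ± 0.0282), and at this length each old donor was nearer to young pre after transplantation than before it. The gains were 0.00654, 0.035, 0.00579 and 0.0309 in donors 1 to 4, with a mean of 0.0195. The order did not hold in every donor by other measures. In full lists the gains were 0.0447, 0.0331, -0.0401 and 0.273 (mean 0.0776, exact sign-flip permutation p = 0.375), and by the Spearman correlation of area 0.00207, 0.0231, -0.00167 and 0.119 (mean 0.0357, exact sign-flip permutation p = 0.25). Leaving out young pre 1 or 2 made donor 3 negative, and leaving out young pre 4 made donor 1 negative. At the length of 5687 peaks 2 of 16 sign patterns of the exact sign-flip permutation test were as extreme, the fewest that 4 donors allow, so the test cannot pass 0.05. In donor 4 the pre list held only 5687 peaks.

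Young post libraries lay nearer to young pre than old post libraries did. Their values of 0.767, 0.763, 0.751 and 0.753 (0.759 ± 0.00792, SD, n = 4) all lay at or above the highest old post value. The difference, old post minus young post, was -0.0256 (exact permutation test, two-sided, p = 0.0286, the smallest possible). On the shared assay days the values were 0.742 in old post 3 against 0.767 and 0.763 in young post on day 5, and 0.704 in old post 4 against 0.751 and 0.753 in young post on day 6. List length before the cut differed too. Young post 1 to 4 held 32530, 30784, 31409 and 32007 peaks, while old post 3 held 31003 and old post 4 held 14008. The part of list length in this difference was not tested. Old post libraries averaged 0.797 with young post and 0.733 with young pre, with the first higher in 4 of 4 libraries. Nearness to young post was not particular to them: 3 of 4 old pre libraries (means 0.735 and 0.714) and 3 of 4 young pre libraries (means 0.759 and 0.729) showed the same order.

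**Figure D1:**
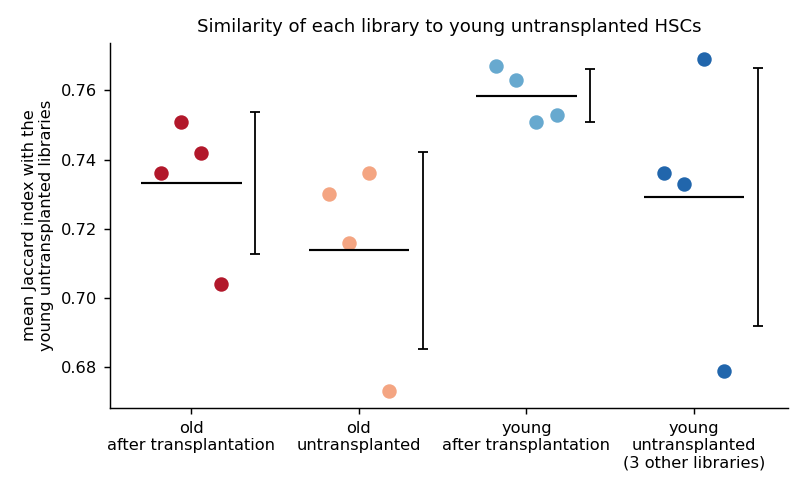
Mean Jaccard index of each library with the young pre libraries (vertical axis), with all lists cut to 5687 peaks. Points are libraries, lines group means and bars 1 SD (n = 4). Old post libraries average 0.733, within the range of the young pre libraries among themselves (0.679 to 0.769).

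To compare how open a region was, the peak areas of a region were summed in each library and ranked among the 8815 regions called in all 8 libraries, as a percentile from 0 to 100. Most regions held nearly the same rank in both groups: 82.1% differed by less than 10 points between the group means, the SD of the differences was 8.09 points and the median was 0.278. Of the 8815 regions, 3 (0.034%) passed limma's moderated test at a Benjamini-Hochberg adjusted p of 0.05, 2 of them higher in old post (0.0227%) and 1 lower (0.0113%). At an unadjusted p under 0.05 there were 428 higher (4.86%) and 373 lower (4.23%). In 361 regions (4.1%) all old post libraries lay above all young pre libraries and in 227 (2.58%) all lay below. Leaving out old post 1, 2 or 4 ended every call, while leaving out young pre 4 gave 211 of 12592 regions.

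The largest called difference was at Sp110, a nuclear-body gene of the interferon-inducible Sp100 family, in a region of chromosome 1 (chr1:85600141-85601598, mm10) that also covers the promoter of its neighbour Sp140. The region stood at percentile 76.1, 76.7, 82.3 and 91.4 in old post 1 to 4, against 25.0, 29.7, 22.6 and 4.1 in young pre 1 to 4. The groups did not overlap, and the difference was 61.3 ± 6.73 points (SE, limma adjusted p = 0.00778). Under 6 of 19 alternative settings the Sp110 region kept its direction but lost the threshold. Among these were area per base (43.7 points, limma adjusted p = 0.945), normal scores (limma adjusted p = 0.0838) and a replicate block (limma adjusted p = 0.194). Old pre libraries stood at 67.9, 72.1, 72.2 and 89.6 and young post libraries at 63.9 to 71.2, so young pre was the only low group. Genes of this family lie side by side in near-identical copies, and reads may have been placed at the wrong copy.

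Hspa4, which encodes a chaperone of the Hsp110 family that assists Hsp70, gave the 1 region called lower (chr11:53296281-53301542, over the gene's start). Its percentile was 85.3, 81.7, 85.0 and 85.7 in old post libraries, against 97.4, 94.9, 95.2 and 94.2 in young pre libraries. The groups did not overlap and the difference was -11.0 ± 1.51 points (SE, limma adjusted p = 0.043). Young post libraries, at 88.2 to 89.6, lay between the groups, and old pre libraries ranged from 81.9 to 94.0. Its direction depended on the measure. By area per base the Hspa4 difference was 13.2 points (adjusted p = 0.96) and by the q-value of the summit 5.92 points (adjusted p = 0.584), both with old post higher. Over all alternatives its adjusted p ran between 0.0124 and 0.96.

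By a rule of the smallest p-values, 8 further regions that missed the threshold are given with their values, and each has groups that do not overlap. Higher in old post means were a region 5882 bp from Galnt6, an O-glycosylation enzyme (58.2 ± 3.85 in old post against 21.2 ± 8.76 in young pre, adjusted p = 0.0925), and a region 22675 bp from Sod1, the cytosolic superoxide dismutase (56.8 ± 4.97 against 24.4 ± 4.16, adjusted p = 0.0925). Regions within Gipc2, a PDZ scaffold gene, and Plxna4, a semaphorin receptor, averaged 73.5 ± 6.47 and 63.7 ± 3.75 in old post and 36.8 ± 10.8 and 30.3 ± 8.72 in young pre (both adjusted p = 0.114). In all 4 of these the young post libraries, between 47.9 and 72.7, lay above every young pre library.

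Lower in old post means was the start of Maff, a small Maf transcription factor, with 87.0, 83.7, 90.6 and 84.5 in old post libraries and 98.5, 97.0, 96.0 and 95.7 in young pre libraries (difference -10.4 ± 1.66 SE, adjusted p = 0.0925). Arih2, a ubiquitin ligase gene, averaged 71.5 ± 4.1 in old post and 88.0 ± 2.17 in young pre (adjusted p = 0.114). A region at the start of Gps2, a corepressor subunit, and at an end of its neighbour Neurl4 averaged 8.39 ± 7.78 in old post and 40.3 ± 3.43 in young pre (adjusted p = 0.0925). A region on chromosome 6 nearest to the predicted gene Gm40363 averaged 47.2 ± 4.28 in old post and 85.7 ± 12.8 in young pre (adjusted p = 0.0925). All ± values beside means are SDs over 4 libraries.

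**Figure D2:**
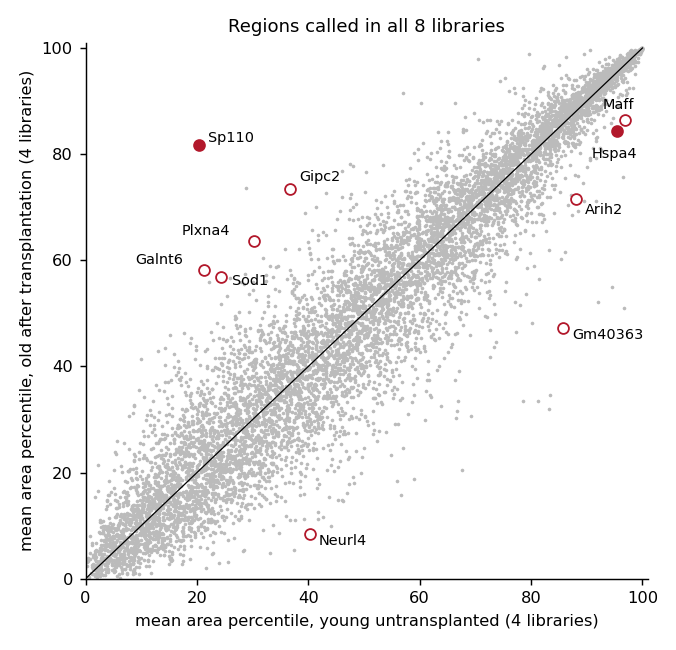
Mean area percentile of the 8815 regions called in all 8 libraries, in old post (vertical) against young pre (horizontal). Filled circles are Sp110 and Hspa4, past the adjusted threshold, open circles the 8 further regions given with values, and the line marks equal ranks. Sp110 lies far above the line and most regions close to it.

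The promoters of 3 of the lower regions and of Wwtr1, which leads the all-or-none regions below, are shown to give the sequence under these peaks. They are from RefSeq, build GRCm38.p6, on the strand of the gene, from 250 bases before to 50 after the start. Capitals mark ETS (CCGGAAGT), CRE (TGACGTCA) and E-box (CACGTG) letters on either strand. The windows are chr11:53300430-53300729 (minus strand) for Hspa4, chr15:79347270-79347569 (plus strand) for Maff, chr9:108649359-108649658 (minus strand) for Arih2 and chr3:57575861-57576160 (minus strand) for Wwtr1.
Hspa4: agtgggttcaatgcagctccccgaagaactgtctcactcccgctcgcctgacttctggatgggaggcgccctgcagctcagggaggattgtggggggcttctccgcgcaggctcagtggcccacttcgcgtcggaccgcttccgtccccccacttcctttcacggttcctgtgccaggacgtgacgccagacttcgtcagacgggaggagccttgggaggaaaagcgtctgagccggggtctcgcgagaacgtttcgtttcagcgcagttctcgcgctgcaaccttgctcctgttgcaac
Maff: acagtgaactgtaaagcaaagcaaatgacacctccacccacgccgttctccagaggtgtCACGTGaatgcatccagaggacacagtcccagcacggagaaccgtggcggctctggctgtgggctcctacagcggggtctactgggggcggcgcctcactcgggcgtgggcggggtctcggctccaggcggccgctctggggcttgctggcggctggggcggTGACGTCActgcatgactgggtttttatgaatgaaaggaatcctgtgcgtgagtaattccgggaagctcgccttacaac
Arih2: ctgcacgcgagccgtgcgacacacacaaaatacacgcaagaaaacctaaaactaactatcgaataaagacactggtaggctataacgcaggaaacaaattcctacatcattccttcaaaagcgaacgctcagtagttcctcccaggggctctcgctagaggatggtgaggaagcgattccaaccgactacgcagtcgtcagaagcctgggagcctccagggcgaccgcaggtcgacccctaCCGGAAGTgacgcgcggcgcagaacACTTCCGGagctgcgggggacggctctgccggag
Wwtr1: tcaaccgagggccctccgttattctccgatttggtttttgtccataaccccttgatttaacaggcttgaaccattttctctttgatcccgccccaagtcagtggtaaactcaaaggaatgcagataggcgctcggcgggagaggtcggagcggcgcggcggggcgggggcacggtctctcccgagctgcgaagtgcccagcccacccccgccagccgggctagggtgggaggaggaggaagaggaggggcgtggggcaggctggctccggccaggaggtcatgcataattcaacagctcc
The Maff window shown holds 1 CRE and 1 E-box match, Arih2 an ETS match on each strand, and Hspa4 and Wwtr1 hold none of the 7 sets of letters searched. Another Maff window under the same region, chr15:79348152-79348451, is not shown and holds none of them either. ETS letters were found in 48 of the 220 promoter windows (21.8%) under the regions whose old post values all lay below young pre. They were found in 10 of 200 windows (5.0%) under the regions whose old post values all lay above, in 9.33% of the 7875 windows under any tested region and in 3.89% of all 32851 windows. E-box letters were in 34 of the 220 (15.5%) and in 20 of the 200, against 10.5% under any tested region. AP-1 letters (TGANTCA) were in 5 of the 220 (2.27%) and 11 of the 200 (5.5%), against 3.81%. Some genes have several windows that overlap, and these shares are descriptions with no test.

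Presence alone separated few regions. At equal list length, 84 of the 10977 regions (0.765%) were called in all 4 old post lists and in no young pre list, and 30 (0.273%) in all 4 young pre lists and in no old post list. In the full lists of the 28329 regions there were 22 (0.0777%) and 1 (0.00353%). The numbers moved with the length kept: 14 and 5 at 2500 peaks, 55 and 13 at 7500 peaks, 196 and 5 at 14008 peaks, and 57 and 0 at 21346 peaks. Above 9614 peaks the shorter lists stayed whole, so lengths were no longer equal. Of the 84 old post only regions 14 (16.7%) lay within 1 kb of the end of a protein-coding gene, against 21 of the 30 young pre regions (70.0%) and 64.2% of all regions. Most of both sets were in full lists of the other group. The full lists of young pre 1 to 4 held 82, 80, 80 and 0 of the 84. Those of old post 1 to 4 held 29, 29, 30 and 22 of the 30. Without old post 4 and young pre 4, a choice made after seeing the data, there were 469 old post only and 288 young pre only regions.

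**Figure D3:**
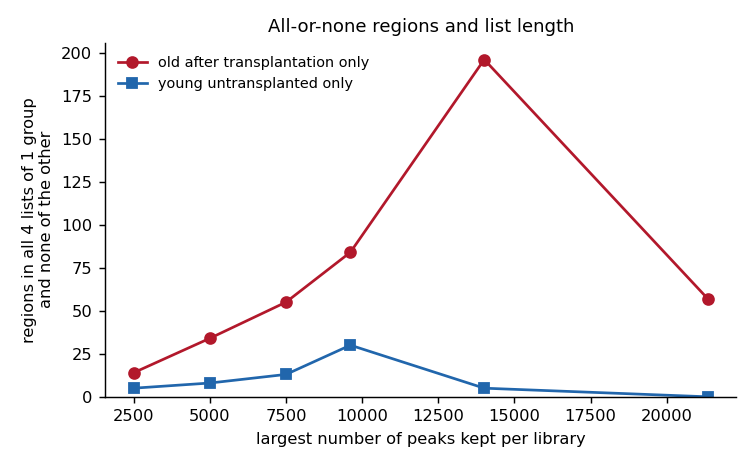
Number of regions in all 4 lists of 1 group and none of the other (vertical) against the number of peaks kept per library (horizontal). Circles are old post only and squares young pre only. At the equal length of 9614 peaks the counts are 84 and 30.

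Among the old post only regions by the naming rule was the start of Wwtr1, which encodes the Hippo pathway coactivator TAZ (chr3:57574866-57576963). Within the shortened lists it stood at percentile 56, 70.7, 65.4 and 31.5 in old post 1 to 4 and was in none of the young pre lists, though 3 of 4 full young pre lists held it. It stood at 84.5, 82.8, 89.6 and 51.6 in old pre 1 to 4, and 1 of 4 young post lists had it, at 9.99. A region within Iqgap2, a scaffold of the actin cytoskeleton, stood at 31.4, 36.3, 28.2 and 55.7 in old post lists, and here 4 of 4 young post lists had the region and 2 of 4 old pre lists. Regions within Ablim1, an actin-binding LIM gene (13.6 to 49.6 in old post), and Asap2, a GTPase activator of Arf (41.9 to 47.2), were in 2 old pre and 4 young post lists each. Regions near Gsto2, a glutathione transferase, Fam114a2 and Snx5, a sorting nexin, and 1 on chromosome 10 at 96180409 complete the 8 named. In the young post lists all 4 of these were called 4 times.

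The 8 young pre only regions named were at Srsf5, a splicing factor, Tead3, Rnf220, a ubiquitin ligase, Noxa1, an activator of NADPH oxidase, Plxna2, Slc5a5, Adgra2 and Cebpg, a C/EBP family factor. The Srsf5 region stood at percentile 99.7, 99.4 and 99.7 in young pre 1 to 3 and at 5.03 in young pre 4, and 2 of 4 full old post lists held it. The Tead3 region, which lies within 1 kb of the ribosomal protein gene Rpl10a, stood at 73.3, 70.9, 65 and 41 in young pre lists and was in 3 of 4 full old post lists. The Rnf220 region stood at 51.6, 51, 50.7 and 40.3 in young pre lists and was in 4 of 4 young post and no old pre lists of equal length. Noxa1 showed the other order, with 3 of 4 old pre and no young post lists. A region within Hlf, a transcription factor of HSC identity, belonged to the same 30, at 45.2, 27.2, 14.2 and 3.72 in young pre lists. Full lists held this Hlf region in 4 of 4 old post libraries too.

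The all-or-none regions fell into several patterns in the other groups at equal length. Old pre 4, whose full list was the shortest, is left out of this count. The full lists of young post 1 to 4 each held all 84 and all 30 regions. Those of old pre 1 to 3 held 84, 84 and 80 of the 84, and 29, 30 and 29 of the 30. An absent call in these patterns therefore mostly means a peak below the cut. The shares of the patterns over all regions were not counted, so their numbers support no direction. Of the 84 old post only regions, 6 were called in all 3 old pre and no young post list, at Cavin2, Odf2l, Fry, Plscr2, Nrxn3 and Aldh1a1. Another 9 showed the opposite, no old pre and all 4 young post lists, among them Tiam1, Pdzd2 and Fhit. In 11 both groups were called throughout, and in 2, at Zmat4 and Bin1, neither was. Of the 30 young pre only regions, 4 were in all 3 old pre and no young post list (Noxa1, Tinagl1, Tradd and Hlf), 2 in no old pre and all 4 young post lists (Rnf220 and Slc5a5), and 7 in neither, among them Kdr, the VEGF receptor of endothelium.

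A test that weighs each library by the length of its list called 1 of 8009 regions in the full lists (0.0125%), within Cldn34d (X:76598672-76599180), a claudin family gene. It had a peak in no old post library and in all 4 young pre libraries, in 4 old pre and in 1 young post library (exact conditional test, adjusted p = 0.00332). The peak was weak: in lists of equal length only 1 young pre library, young pre 4, held it, at percentile 0.317. Young pre 4 also had the lowest log odds of a call (-6.87), so its call weighed most in this test. No region was called as more frequent in old post, and 272 regions (3.4%) had an unadjusted p under 0.05 in either direction. Regions called in 4 old post and 0 young pre libraries, such as Odf2l, had p = 5.3e-04 (exact conditional test, adjusted p = 0.112). Unweighted (Fisher's exact test) the test called 0 regions, but 4 against 4 libraries give no p below 0.0286, too high to pass the adjustment here. In lists of equal length the test called 0 regions as well. Without old post 3 or young pre 4 it called 0, and without young pre 1 it called 4. Aldh1a1, a retinaldehyde dehydrogenase, was 1 of the 22 full-list regions, called in 4 old post and 0 young pre libraries, 3 old pre and 4 young post. Rfx4 was another, in 4 old post, 0 young pre, 0 old pre and 4 young post libraries.

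Without old post 4 and young pre 4 the percentile could be ranked over 17022 regions called in the other 6 libraries, and many more regions were called. There were 44 higher in old post (0.258%) and 50 lower (0.294%), with 2696 at an unadjusted p under 0.05. The groups did not overlap in 2096 regions higher (12.3%) and 1774 lower (10.4%). This fit was chosen after seeing the data. An adjustment for list length over all 8 libraries called 92 regions, of which 20 were shared with the 94, all in the same direction. Of the 44 higher regions 9 lay at gene ends, and of the 50 lower regions 33 did, against 54.0% of the regions tested.

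Sp110 and Hspa4 were called here as well. Next among the higher regions was Ablim1, at 70.7, 66.4 and 70.2 in old post 1 to 3 against 23.6, 4.99 and 9.9 in young pre 1 to 3 (limma adjusted p = 0.0103). The start of Wwtr1 stood at 74.3, 82.6 and 79.5 in old post against 39.5, 40.0 and 31.7 in young pre (difference 41.7 ± 4.39 SE, adjusted p = 0.0103). Old post and young pre did not overlap in either, and old pre stood highest at Wwtr1 (83.9 to 93.3). Young post had the lowest mean there (27.3, against 37.1 in young pre), but its libraries, at 14.4 to 48.3, overlapped young pre. Iqgap2 stood at 60.4, 63.3 and 58.4 in old post against 17.0, 2.49 and 16.2 in young pre (adjusted p = 0.0166). Regions near Tmem132e and Pcp4, within Wdr70 and Fbxo40, and near Fam114a2, Gsto2 and Smtnl1 followed, with differences of 14.1 to 52.2 points and adjusted p between 0.0166 and 0.0285. Fbxo40, an F-box gene, was low before transplantation in old donors too: 2 old pre libraries had it at 2.68 and 5.02 and 2 did not call it, against 37.1 to 53.3 in young post.

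The largest difference among the lower regions was in a region over Cd68, a lysosomal glycoprotein of macrophages, and its neighbour Eif4a1, a translation initiation helicase that hosts small nucleolar RNAs (chr11:69664575-69670318). It stood at 13.9, 8.9 and 19.2 in old post against 98.1, 93.1 and 90.0 in young pre (difference -79.7 ± 4.64 SE, adjusted p = 0.00089). Neither old post 4 nor young pre 4 called it, and young post stood at 4.64 to 27.2. The region at Tead3 and near Rpl10a stood at 6.67, 12.7 and 15.8 in old post against 84.6, 82.1 and 79.0 in young pre (adjusted p = 0.00101). Hsp90aa1, the stress-inducible Hsp90 chaperone gene, stood at 78.4, 72.1 and 78.0 in old post against 99.5, 96.5 and 99.8 in young pre (adjusted p = 0.00346), with old pre at 61.5 to 69.7 where called and young post at 77.0 to 98.7.

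Some genes of the immediate early response, which cells switch on within minutes of a stimulus, also stood among the lower calls. Btg2, an antiproliferative gene of that class, stood at 77.5, 76.3 and 78.5 in old post against 97.5, 94.1 and 96.2 in young pre (adjusted p = 0.00286), but in the short lists left out it stood at 82.9 in old post 4 and 81.7 in young pre 4. Egr3 stood at 89.9, 89.9 and 88.9 in old post against 96.8, 94.2 and 96.2 in young pre (adjusted p = 0.0449). Nr4a1, a nuclear receptor, stood at 89.4, 84.9 and 93.4 in old post against 99.9, 99.9 and 99.9 in young pre (adjusted p = 0.0484). The groups did not overlap in any of the 3. Other immediate early regions stood higher in old post without overlap, at Fos, Fosb, Jun, Dusp1, Klf10 and Klf2, and none of these was called. A region outside Fos stood at 90, 90.6 and 91.2 in old post against 81.8, 89.3 and 89.6 in young pre (adjusted p = 0.41), and at the ends of Fosb, Jun and Dusp1 every library of both groups lay at 99.8 or above. Klf2 had 1 region on either side, at 89.4, 89.7 and 89.6 in old post against 86.4, 85.7 and 85.7 in young pre (adjusted p = 0.189), and at 27.7, 25.5 and 50.7 in old post against 82.5, 66.7 and 63.8 in young pre (adjusted p = 0.0892). Csrnp1, named by its call and not a member of the immediate early list, stood at 79.7, 80.0 and 81.7 in old post against 97.7, 98.0 and 98.0 in young pre (adjusted p = 0.00089), and it stood lower in both short lists, at 35.1 in old post 4 and 64.9 in young pre 4.

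**Figure D4:**
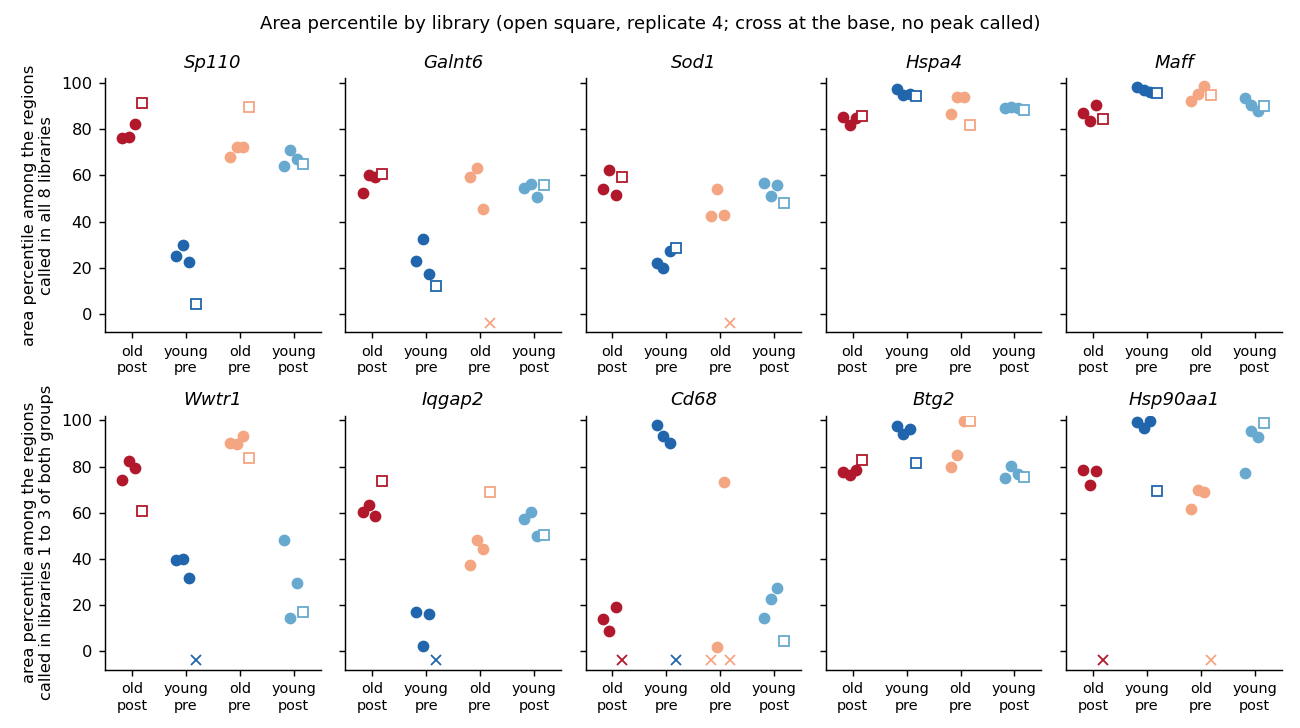
Area percentile (vertical) in each library of the 4 groups for 10 named regions, ranked over 8815 regions in the upper row and over 17022 in the lower row. Open squares are replicate 4 and crosses at the base mark libraries with no peak. Where called, Sp110, Galnt6 and Sod1 are low in young pre only, and Wwtr1 is high in both old groups.

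The 94 regions were placed against the 2 other groups by whether each group's mean percentile (old pre 1 to 3, young post 1 to 4) lay nearer to old post or to young pre. Of the 44 higher regions, young post lay nearer to old post in 40 and old pre in 33, and in none were both nearer to young pre. Of the 50 lower regions, young post lay nearer to old post in 43 and old pre in 22, and in 27 young post alone did. Over all 17022 regions the shares were 60.7% for young post and 50.1% for old pre. The 94 were picked for a difference between old post and young pre, so regions without overlap are a closer background. There the shares were 74.8% for young post and 47.2% for old pre among the 2096 higher. Among the 1774 lower they were 75.5% and 55.7%. The medians of the 50 lower regions were 54.3 in old post, 64.2 in young post, 74.9 in old pre and 88.7 in young pre. Old post and young post were assayed on days 4 to 6, old pre on days 1 and 2 and young pre on days 2 and 3. The part of the assay day in these values was not tested.

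**Figure D5:**
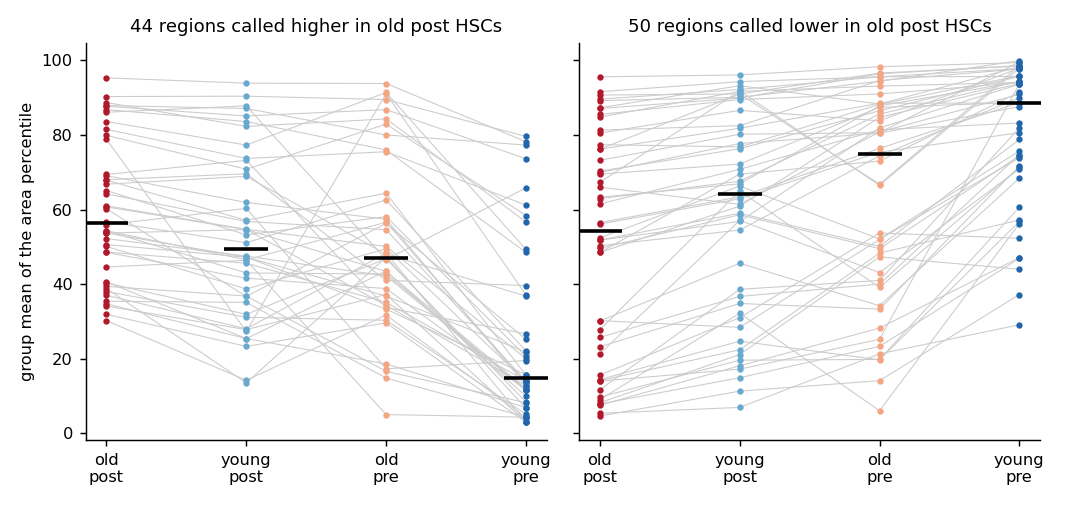
Group means of the area percentile (vertical) for the 44 regions called higher (left) and the 50 called lower (right) without replicate 4 of both groups. Each line is 1 region, and black bars are medians. Young post medians, 49.3 and 64.2, lie nearer to old post (56.3 and 54.3) than to young pre (14.8 and 88.7).

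The gene lists were read over all 8 libraries first. The 18 lists had 295 regions called in all 8, of which 0 passed the adjusted threshold of the limma fit, with 12 higher (4.07%) and 17 lower (5.76%) at an unadjusted p under 0.05, close to the shares over all regions. The 34 genes reported higher in old HSCs, drawn from earlier work on ageing, had 11 regions with a median difference of 5.88 points, against 0.278 over all regions, and 9 of the 11 were positive. In that list the groups did not overlap in 2, Gda and Selp, both higher in old post (18.2%, against 4.1% over all regions). Gda, a guanine deaminase, stood at 24.8, 29.9, 33.8 and 34.1 in old post libraries against 4.01, 7.07, 3.53 and 16.4 in young pre libraries (adjusted p = 0.163). Selp, the platelet and endothelial adhesion molecule P-selectin, averaged 71.0 ± 6.65 in old post and 58.4 ± 3.73 in young pre (SD, n = 4, adjusted p = 0.452).

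Presence was counted over all 34 genes of the same list. At equal list length 16, 16, 17 and 17 of the 34 had a region in old post 1 to 4, against 11, 9, 9 and 10 in young pre 1 to 4, and the groups did not overlap. Old pre lists held 23, 23, 22 and 14 and young post lists 10, 10, 12 and 10. Over all genes, old post lists of that length held 9142 to 9460 regions and young pre lists 9002 to 9524. In full lists the groups overlapped. There 45, 61, 63 and 33 of 64 regions of the 34 genes were called in old post 1 to 4, against 55, 37, 38 and 11 in young pre 1 to 4. Regions with at least 3 more calls in old post than in young pre lay at 6 genes, and 5 of them, all but Gda, were in no young pre list, so their count supports no direction. None had at least 3 more calls in young pre, and over all regions these shares were 2.61% (more in old post) and 1.79% (more in young pre). The 6 were Wwtr1, Cavin2, a caveolar protein of platelets and endothelium, Plscr2, a phospholipid scramblase, Aldh1a1, Ampd3, an AMP deaminase, and Gda. Cavin2 stood at percentile 30.2, 38.8, 38.1 and 42.7 in old post lists and 61.2 to 84 in old pre lists, and was in no young pre or young post list of that length. Full lists held the Cavin2 region in 3 of 4 young pre and 4 of 4 young post libraries. Without replicate 4 of both groups 2 of the 32 regions of this list were called higher (0.258% over all regions), Wwtr1 and Plscr2, and 0 lower, and 7 stood above young pre without overlap (21.9%, against 12.3% over all regions). Earlier results of the same libraries were known when the list was chosen, so it is no independent evidence of its direction.

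Genes reported lower in old HSCs and lymphoid priming genes leaned the other way in the fit without replicate 4. The lists share genes and are not independent: Flt3 and Satb1 are among the genes below young pre without overlap in both. Of 22 regions in the list reported lower in old HSCs, 1 was called, the start of Hmga2, an architectural chromatin protein of fetal and young HSCs, at 37.9, 18.2 and 7.86 in old post against 80.2, 71.1 and 61.3 in young pre (adjusted p = 0.0464). Young post stood at 51.8 to 65.8 and old pre at 35.2 to 51.9 there. The median of that list was -3.24 points over 22 regions, but 1.07 over the 7 regions called in all 8 libraries. Of the 22, 6 lay below young pre without overlap (27.3%, against 10.4% over all regions). Another 3, at Cd34, Sox4 and Hmga2, lay above (13.6%, against 12.3%), so Hmga2 had regions on either side. Of 22 lymphoid priming regions 8 lay below young pre without overlap (36.4%, against 10.4% over all regions), at Flt3, Foxp1, Notch1 and Satb1. A region at Ikzf1 lay above without overlap (4.55%, against 12.3%). The list's median was -6.52 points, but 2.35 over its 7 regions called in all 8. At the start of Flt3, the receptor that marks lymphoid-primed progenitors, all 8 libraries gave 12.4, 5.27, 14.2 and 12.5 in old post against 26.0, 39.5, 19.5 and 32.3 in young pre (adjusted p = 0.278).

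HSC identity genes gave no common direction. Over 35 regions the median was 0.964 points, 21 positive and 14 negative. Without replicate 4 it was -1.39 points over 72 regions, 27 positive and 45 negative. Of the 72, 4 lay above young pre without overlap (5.56%, against 12.3% over all regions), at Runx1, Slamf1 and Tal1. Another 6 lay below (8.33%, against 10.4%), at Hlf, Hoxb5, Mecom, Meis1, Prdm16 and Tal1. An intragenic region of Runx1 stood at 56.1, 66.6, 72.6 and 80.2 in old post libraries against 43.9, 48.0, 39.7 and 26.2 in young pre libraries without overlap (adjusted p = 0.187). The Hlf region averaged 15.4 ± 12.3 in old post and 35.1 ± 21.6 in young pre over all 8 libraries, with overlap. AP-1 and immediate early genes had a median of -0.218 points over 46 regions. Without replicate 4 they had 3 of 66 called lower (0.294% over all regions), Btg2, Egr3 and Nr4a1, and 0 called higher. Of the 66, 16 lay below young pre without overlap (24.2%, against 10.4% over all regions) and 7 above (10.6%, against 12.3%). Endothelial and stromal genes, which mark cells other than HSCs, had a median of -6.73 points over 6 regions, 5 of them negative, and -5.28 over 19 without replicate 4, and their part in any other result was not tested.

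In the remaining 12 lists 0 regions were called in the fit over all 8 libraries, with medians between -2.43 (TGF-beta and Wnt, 23 regions) and 3.4 points (megakaryocyte and platelet genes, 14 regions). TGF-beta and Wnt genes had 6 positive and 17 negative differences, and 2 of the 23 lay below young pre without overlap (8.7%, against 2.58% over all regions). Of the 14 megakaryocyte and platelet regions 2 lay above young pre without overlap (14.3%, against 4.1%), among them the Selp region given above. Without replicate 4, 3 of its 34 regions lay above (8.82%, against 12.3% over all regions) and 3 below (8.82%, against 10.4%). Interferon response genes had a median of 3.18 points over 14 regions, none without overlap. Cell cycle and CDK inhibitor genes had a median of 1.51 points over 26 regions, and a region near Cdkn2c, an inhibitor of Cdk4 and Cdk6, was in 4 of 4 old post and 1 of 4 young pre lists of equal length. Without replicate 4, 8 of the 576 list regions were called, 6 of them lower, against 0.294% called lower over all regions. Beside those named, they were at Rap1b, a small GTPase of platelets, and near Fcgr3, an Fc receptor.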

How the data were processed

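Mouse HSCs were assayed by Omni-ATAC in 16 libraries, of which 8 were compared. Per the submitters' processing notes, FastQC, MultiQC, Trim Galore, cutadapt, Genrich, ChIPseeker, featureCounts and DESeq2 were used, on build mm10. The sources used here do not give the aligner, versions or settings. The authors deposited 1 narrowPeak list per library, without header. In the deposited lists column 7 is a score made by the authors' peak caller, the area of a peak, at least about 200 in every list and not normalised between libraries. It was compared as a rank within a library. The deposited -log10 q-value at the summit was used as an alternative, and the deposited summit position to match peaks.

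Peaks on the 21 standard chromosomes (202 others in the 16 lists left out) were merged over the 16 libraries wherever they overlapped by 1 bp. Areas of a region were summed per library, ranked and tested with limma 3.58.1 in R 4.3.3 (trend, robust, group as the only term, old post minus young pre), with Benjamini-Hochberg adjustment at 0.05 over all regions. Presence was compared in full lists and with lists cut to the 9614 peaks of largest area. The weighted exact test conditions on a region's number of calls (3 to 5 of 8) and weighs libraries by their log odds of a call over all regions. Single values were tested by exact permutation (4 against 4 gives no p below 0.0286). Other steps used Python 3.11.15, numpy 2.4.6, pandas 2.3.3, scipy 1.17.1 and matplotlib 3.10.9. Regions were assigned to the gene they overlap or the nearest within 100 kb of 21887 RefSeq protein-coding genes of GRCm38.p6, which is the mm10 assembly. Gene ends were taken as 1 kb around either end of a gene.

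Members and gene lists were chosen with earlier results of these data known, and 348 of 351 list genes matched. Regions were named by rule: 12 per direction past the threshold or, with fewer than 5 past it, the 6 of smallest p (some of these are not reported here), and 8 all-or-none regions per direction of highest percentile. From the lists, called regions were named or else the 2 of largest difference in each direction, with the presence calls and regions without overlap named beside them. The statistics were tested on simulated data. No counts of reads were used, so depth and counting error are unknown, and list length stands in for depth. Alternatives were the measure, the cut, the regions kept, covariates and leaving out libraries.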

Additional observations from a re-analysis of the deposited data

Results flagged for a closer look

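Of 28 groups of 4 libraries tested for a library far from the others, 1 was marked, and chance marks about 1 in 20. Old post 1 had the Galnt6 region at percentile 52.5, apart from old post 2 to 4 at 60.1, 59.4 and 60.8, while young pre stood at 12.0 to 32.4.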

How the results depend on the processing

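Sp110 and 8 other named regions kept their direction under all settings that gave a value, and Hspa4 reversed to 13.2 by area per base and 5.92 by summit q-value. Of the other tests of named regions 140 stayed on their side of the threshold, 17 lost it and 27 passed it. The 3 regions called by percentile became 0 by area per base, 9 by summit q-value, 1 with normal scores, 7 with uncalled regions at 0, 92 with list length as a covariate, 25 with all 16 libraries, 11 away from gene ends and, without old post 4 and young pre 4 (chosen after seeing the data), 94. Leaving out 1 library gave 0 to 211. Same-numbered libraries deviated together by 0.092, 0.13, 0.31 and 0.47, not all over 0.1, so the number does not pair them, and with a replicate block 0 regions passed (smallest adjusted p = 0.184). All-or-none counts were 34 (old post) and 8 (young pre) at 5000 peaks, 0 young pre at the third shortest length and 49 young pre by summits within 100 bp. Leaving out 1 library gave 95 to 197 and 34 to 130 at equal length, 22 to 521 (old post 4 left out) and 1 to 76 (young pre 4) in full lists. Without replicate 4 of both, also chosen after seeing the data, counts were 469 and 288, and 521 and 76. The weighted test's 1 call became 0 in equal lists, 0 without replicate 4 of both and 0 to 4 on leaving out 1 library. It was 0 by Fisher's exact test too, whose smallest p of 0.0286 for 4 against 4 is too high to pass the adjustment. Similarity within minus between groups was -0.0178 in full lists, 0.0135 at 5000 peaks, 0.0113 by Spearman correlation, 0.0429 without replicate 4 of both (exact p = 0.1) and 0.0124 to 0.0377 without 1 library. The gain of the old donors in similarity to young pre (0.0195) was 0.0776 in full lists and 0.0357 by Spearman correlation, positive in 3 of 4 donors in each, 0.011 without donor 4 and young pre 4, and 0.0144 to 0.0242 without 1 library or donor. The difference in median width turned from 22.5 bp to -23.5 in full lists, -16.0 without replicate 4 of both and -133.7 to 148 without 1 library, and that in peak number (3624) ranged from -30.33 to 7020. These causes were not tested, except that leaving out a library loosens the all-or-none rule.

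Depth is unknown, and a region below the score minimum of a short list cannot be told from a closed one.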

Other observations

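Counted after the values were seen, 11 of the 50 regions lower in old post without replicate 4 (22.0%) lay within 1 kb of a gene for ribosomal RNA, transfer RNA, small nucleolar RNA or a ribosomal protein. Of the 44 higher regions 0 did, and of all 17022 tested 1.57% did. The 5S ribosomal RNA stretch of chromosome 8 gave 3 of the 11, with old post means of 23.2, 9.70 and 7.86 against young pre means of 71.7, 60.6 and 46.9. Ribosomal protein genes gave 3, at Rpl10a (old post 11.7, young pre 81.9), Rps2 (51.8 and 78.8) and Rpl3 (14.4 and 56.8). In 2 the neighbours were transfer RNA genes, on chromosome 13 (56.5 and 88.7) and near Fcgr3 (69.9 and 87.6). Young post means of these 8 regions were 14.9 to 77.7. Over all 8 libraries the same classes held 11 of 227 regions lower without overlap (4.85%), 5 of 361 higher (1.39%) and 2.2% of all tested. Multi-copy genes share reads, so single copies are uncertain.

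A run of regions on chromosome 6 (47653595 to 47764710, 111 kb), which ends at the 4.5S RNA gene Rn4.5s on 1 side and otherwise holds predicted genes such as Gm40363 to Gm40369, gave 11 of the 50 lower calls. All 14 tested regions there lay lower in old post 1 to 3 than in young pre 1 to 3 without overlap. Their median percentile was 75.8, 79.7, 72.0 and 65.1 in old post 1 to 4, against 95.5, 99.0, 95.7 and 70.7 in young pre 1 to 4. Young post libraries stood at 74.4 to 81.9, and old pre libraries at 90.1, 92.3, 93.8 and 71.0. Old post 4, young pre 4 and old pre 4, which had the shortest lists of their groups, had the lowest value of their group. Copies in this run may share reads.

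Regions in the full lists of all 4 old post and no young pre libraries included 3 on chromosome 12 between 114468790 and 115803147, more than 100 kb from any protein-coding gene of the table. They were called in 2 to 3 old pre and 3 to 4 young post libraries. Another 2 of these 22 lay at A530032D15Rik on chromosome 1, called in 3 old pre and 4 young post libraries each.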
